A study of Mus musculus with 6 samples.

Results

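The genes described here are 32 mouse genes that are induced by interferon-gamma or that process and present antigen, taken by symbol from the 24421 genes counted in each of 6 RNA-seq libraries. They comprise 12 GTPases, 2 chemokines, 4 transcriptional regulators, 3 other induced genes, 7 genes of the class I antigen presentation route and 4 of the class II route. Total RNA came from mouse sciatic nerve, the large mixed nerve of the hind limb, which holds myelinating and nonmyelinating Schwann cells, axons, fibroblasts, vessels and resident macrophages. The 3 libraries labelled YAP/TAZ-DBL-cKO, called cKO here, were set against the 3 libraries labelled YAP/TAZ-WT, called WT, and the design text counts separate mice in each genotype. YAP and TAZ are transcriptional co-activators of the Hippo pathway. The labels do not spell out cKO, and they give no age, Cre driver, deleted exons or word on whether nerves were pooled. The members were chosen by earlier values of their differences between these same cKO and WT libraries. Their differences between cKO and WT and their calls in the fit over all genes are therefore given as a description and support nothing. The lists of other genes were also drawn up with earlier results known, so their counts are not independent evidence of a direction.

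Interferon-gamma is a cytokine made mainly by T cells and natural killer cells. Its receptor activates the kinases JAK1 and JAK2, which leads to transcription from gamma-activated sites (GAS) and to the induction of IRF1 and related factors that bind interferon-stimulated response elements (ISRE). Among the genes induced are immunity-related GTPases (the IRG family) and guanylate-binding proteins (the GBP family), which act on the vacuoles of intracellular pathogens, chemokines that draw T cells, the immunoproteasome and peptide transporter of MHC class I presentation, and MHC class II. In peripheral nerve, class II molecules are found mainly on macrophages, and Schwann cells can express them after exposure to interferon-gamma.

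Gene counts ranged from 24651262 to 32003497 in the cKO libraries and from 41270894 to 47044158 in the WT libraries, so every cKO library was the shallower. Levels are given in CPM, read counts scaled to each library's total and its TMM factor. For a gene with 0 counts, a limit of 3 counts allows up to 0.122 CPM in cKO 2 and 0.0638 CPM in WT 1. This limit is scaled to the library total alone, without the TMM factor, and covers counting error only. Schwann cell markers were abundant, 7 of them summing to 12960 to 20580 CPM in the cKO libraries and 43790 to 64450 CPM in the WT libraries. Yap1 stood at 102.5 to 108.8 CPM in the cKO libraries and 120.3 to 123.7 CPM in the WT libraries, which is -0.20 ± 0.08 as log2 fold change and SE, n = 3 each (edgeR adjusted p = 0.145). Wwtr1, which encodes TAZ, stood at 337.3 to 371.9 CPM in the cKO libraries and 253.8 to 284.1 CPM in the WT libraries (log2 0.40 ± 0.09, edgeR adjusted p = 0.0208). That call was lost without cKO 3, WT 1 or WT 2 (edgeR adjusted p = 0.117, 0.0914 and 0.0518). Counts over whole genes do not test for the loss of single exons, so every direction below follows the labels. Each library held reads of both Xist and the Y-linked Ddx3y, so each appeared to hold RNA of both sexes. The design text counts mice, but whether nerves of several mice were pooled into a library is not stated. So n = 3 counts libraries, which are not known to be single mice. Xist had 231, 248.8 and 163.8 CPM in the cKO libraries, against 257.9, 156.8 and 133.9 CPM in the WT libraries. Ddx3y had 8.92, 18.7 and 25.65 CPM in the cKO libraries, against 20.8, 44.5 and 47.9 CPM in the WT libraries (log2 -1.09 ± 0.39, edgeR adjusted p = 0.121), lowest in cKO 1 and highest in cKO 3 and WT 3, as were most members. The part of this mix in the members' levels was not tested. In whole tissue, fewer cells of a type and less RNA per cell cannot be told apart.

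The promoters of these genes were searched for GAS and ISRE motifs. Members were listed as induced by interferon-gamma, which acts through such sites, or as antigen presentation genes. Their motif counts are therefore a description and not independent evidence. RefSeq promoter windows of GRCm38.p6, from 250 bases before to 50 after a gene's start, were found for 24 of the 32 members and not for Cd74, Ciita, Gbp6, H2-Ab1, Iigp1, Nlrc5, Tap2 and Zbp1. The GAS motif TTCNNNGAA, which reads the same on both strands, was present for 10 of the 24 genes and for 9.55% of all 27025 genes with a window. The ISRE motif, GAAA followed by any 2 bases and GAAA again, searched on both strands, was present for 11 of the 24 and for 3.99% of all genes. Stretches of 110 bases that end just before the start are shown 5′ to 3′ along the gene, with GAS and ISRE matches in capitals. They are shown because they hold the motif arrangements described after them:
Igtp (chr11:58199446-58199555, plus strand): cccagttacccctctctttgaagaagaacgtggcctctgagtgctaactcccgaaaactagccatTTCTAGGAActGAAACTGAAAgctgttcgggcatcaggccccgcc
Irgm2 (chr11:58214867-58214976, plus strand): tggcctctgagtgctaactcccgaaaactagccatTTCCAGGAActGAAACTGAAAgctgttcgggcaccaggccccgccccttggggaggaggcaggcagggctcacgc
Tgtp1 (chr11:48992247-48992356, minus strand): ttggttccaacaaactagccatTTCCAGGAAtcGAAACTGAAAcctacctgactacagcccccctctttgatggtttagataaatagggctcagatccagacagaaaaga
Tgtp2 (chr11:49064213-49064322, minus strand): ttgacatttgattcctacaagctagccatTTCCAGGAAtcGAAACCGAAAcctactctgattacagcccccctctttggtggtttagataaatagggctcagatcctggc
Gm12250 (chr11:58183733-58183842, plus strand): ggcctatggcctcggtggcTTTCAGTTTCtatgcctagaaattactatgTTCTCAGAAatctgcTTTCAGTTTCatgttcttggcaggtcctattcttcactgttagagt
Gbp2 (chr3:142620553-142620662, plus strand): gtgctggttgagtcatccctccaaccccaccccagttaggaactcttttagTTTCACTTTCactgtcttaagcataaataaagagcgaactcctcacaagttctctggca
Irgm1 (chr11:48871421-48871530, minus strand): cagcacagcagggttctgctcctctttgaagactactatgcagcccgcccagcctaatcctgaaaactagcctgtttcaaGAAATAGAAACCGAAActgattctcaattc
Serpina3g (chr12:104236037-104236146, plus strand): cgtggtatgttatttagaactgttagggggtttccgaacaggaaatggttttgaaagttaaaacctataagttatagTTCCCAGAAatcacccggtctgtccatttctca
Psmb8 (chr17:34198085-34198194, plus strand): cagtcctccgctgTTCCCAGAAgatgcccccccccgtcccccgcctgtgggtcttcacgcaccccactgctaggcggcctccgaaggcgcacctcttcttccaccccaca
In Igtp, Irgm2, Tgtp1 and Tgtp2 the GAS starts 11 bases before the ISRE. The combined run, a GAS, any 2 bases and then an ISRE, on either strand, occurred in 5 of 32851 windows in all, those 4 and Gm12185, a gene on the same chromosome whose exons overlap Tgtp1 by 223 bases. This spacing was looked for after the positions of the single motifs had been seen, and these genes are related members of the IRG family on chromosome 11, so their windows are not independent. Gm12250 holds 2 ISRE matches with a GAS between them, Gbp2 and Irgm1 hold ISRE matches with no GAS in the stretch shown, and Serpina3g and Psmb8 hold a GAS with no ISRE. A match is a stretch of letters and does not show that a factor binds there.

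The class II promoters with a window are shown next, with the CCAAT box, searched on both strands as CCAAT and ATTGG, in capitals. This is the element that the factor NF-Y binds in class I and class II promoters:
H2-Aa (chr17:34287824-34287933, minus strand): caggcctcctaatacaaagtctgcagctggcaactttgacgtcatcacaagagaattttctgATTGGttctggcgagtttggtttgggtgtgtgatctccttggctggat
H2-Eb1 (chr17:34305757-34305866, plus strand): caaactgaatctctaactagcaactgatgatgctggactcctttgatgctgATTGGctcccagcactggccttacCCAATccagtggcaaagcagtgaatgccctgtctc
Neither H2-Aa nor H2-Eb1 had a GAS or an ISRE match in its window. The same held for the class I members H2-K1, H2-D1, Psmb9 and Tap1. It also held for Cxcl9, Ubd and Ifi47, so the absence of a match is not particular to class II. Only these exact letters were searched in these windows, so a missing match does not show that a site is missing. CCAAT was present for 14 of the 24 member genes and for 41.1% of all genes.

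Among the 32 members, 31 had a higher mean in the cKO than in the WT libraries, and the median log2 fold change was 1.08, against 0.02 over the 14789 genes tested. The groups did not overlap for 16 of the 32, all higher in cKO. Over all tested genes the groups did not overlap for 31.1%, with 15.3% higher and 15.8% lower in cKO. In the edgeR fit over all genes, 15 of the 32 members were called higher at an adjusted p under 0.05 and 0 lower, while 27 had an unadjusted p under 0.05 and DESeq2 called 21. Over all genes 10.9% were called, 4.77% higher (706 genes) and 6.17% lower (912 genes); scaled by total counts alone the split was 1273 higher and 606 lower. Because the members were picked with this contrast known, nothing is read from these counts against those shares. The members called were Ubd, Serpina3g, Zbp1, Gm12250, Tgtp1, Tgtp2, Gbp6, Igtp, Cxcl9, Nlrc5, Psmb8, Psmb9, Tap1, H2-D1 and Cd74. Single libraries decided much of this count. It was 22 without cKO 1, 7 without cKO 2 and 5 without cKO 3. In the WT group it was 5 without WT 1, 6 without WT 2 and 27 without WT 3.

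**Figure D1:**
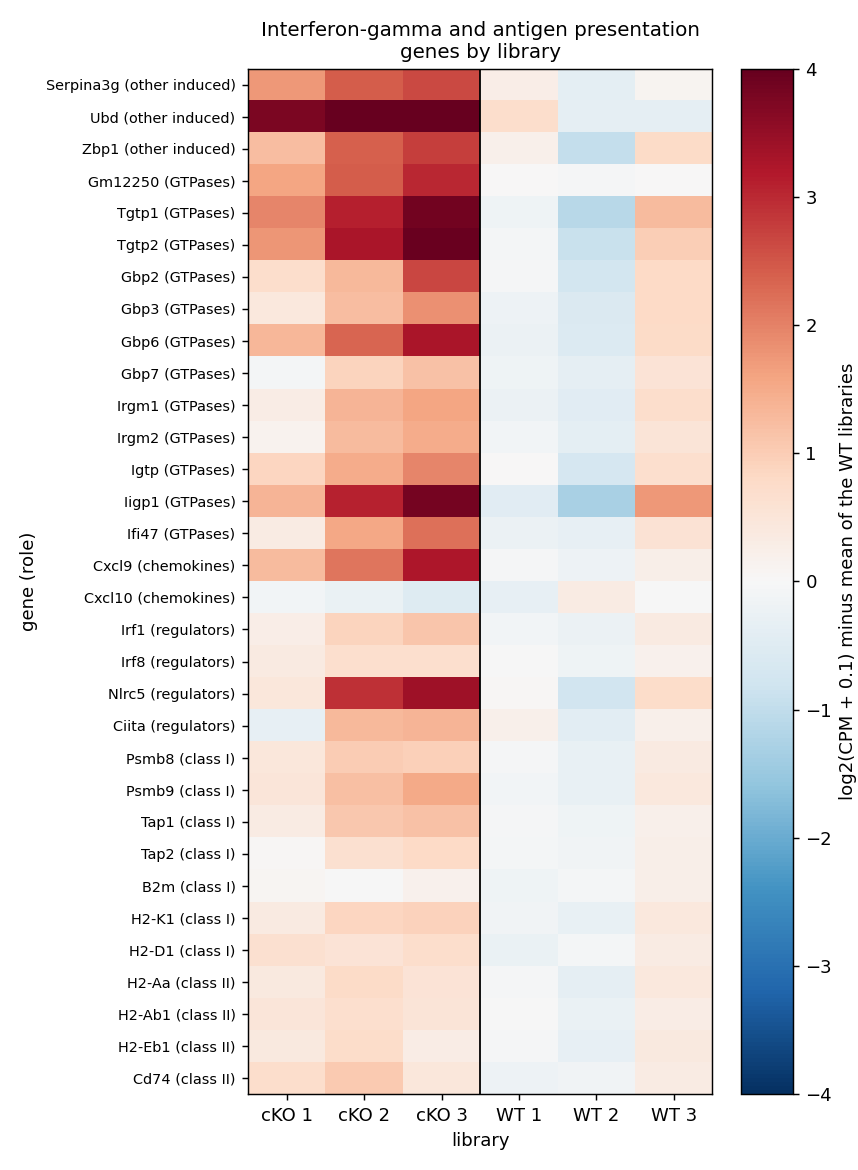
Level of each of the 32 members in each library, as log2(CPM + 0.1) minus the mean of the 3 WT libraries (colour, red higher and blue lower; values above 4 are drawn as 4), with cKO libraries left of the line and WT libraries right of it. The GTPase rows darken most in cKO 3 and least in cKO 1, and WT 3 is the reddest WT library for 11 of the 12 GTPases.

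The IRG family of GTPases was higher in cKO on average for every member listed. Tgtp2 had 6.78, 19.35 and 30.8 CPM in cKO 1, 2 and 3, against 1.795, 0.975 and 3.905 CPM in WT 1, 2 and 3 (3.10 ± 0.60 as log2 fold change and SE, 3 libraries per group). Its near-identical neighbour Tgtp1 had 7.84, 17.4 and 29.5 CPM in the cKO libraries, against 1.73, 0.850 and 4.79 CPM in the WT libraries (log2 2.90 ± 0.63). For both genes every cKO library lay above every WT library, but cKO 1 stood far closer to WT 3 than to cKO 3. Transcripts of Tgtp2 share 85.8% of their 50-base words with Tgtp1, so the split of reads between the pair is uncertain.

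Iigp1, an IRG protein that acts on parasite vacuoles, spread furthest within groups among the 12 GTPases. It had 12.75, 43.1 and 71.1 CPM in the cKO libraries, against 3.63, 1.97 and 16.65 CPM in the WT libraries (log2 2.52 ± 0.79). The groups overlapped, because WT 3 lay above cKO 1. Gm12250, the IRG gene also known as Irgb10, had 1.90, 3.47 and 5.37 CPM in the cKO libraries, against 0.584, 0.550 and 0.580 CPM in the WT libraries (log2 2.64 ± 0.41). Here the WT libraries differed little from each other and all cKO libraries stood above them. Ifi47 had 4.97, 11.7 and 18.5 CPM in the cKO libraries, against 3.35, 3.12 and 5.92 CPM in the WT libraries (log2 1.504 ± 0.44), with cKO 1 below WT 3.

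The regulatory IRG proteins, which hold the effector IRG proteins inactive on the cell's own membranes, are Irgm1, Irgm2 and Igtp. Igtp had 16.4, 25.1 and 35.4 CPM in the cKO libraries, against 9.04, 5.62 and 14.2 CPM in the WT libraries (log2 1.41 ± 0.35), with no overlap. Irgm1 averaged 27.2 ± 10.97 CPM in cKO and 12.8 ± 5.89 CPM in WT (SD, n = 3 each; log2 1.09 ± 0.37). Irgm2 averaged 21.1 ± 8.93 CPM in cKO and 10.35 ± 3.43 CPM in WT (log2 1.03 ± 0.34). For Irgm1 and Irgm2, cKO 1 again lay below WT 3. Igtp (mm10 chr11:58199556-58207591) and Irgm2 (chr11:58199618-58222782) overlap on the same strand and share 162 exon bases.

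Guanylate-binding proteins differed from each other in size of change. Gbp6 had 9.44, 19.0 and 36.6 CPM in the cKO libraries, against 3.14, 2.499 and 6.35 CPM in the WT libraries (log2 2.44 ± 0.50), with no overlap. Gbp2 had 11.9, 18.4 and 47.4 CPM in the cKO libraries, against 7.07, 4.40 and 12.75 CPM in the WT libraries (log2 1.68 ± 0.52). Gbp3 averaged 23.5 ± 10.9 CPM in cKO and 10.6 ± 5.59 CPM in WT (log2 1.16 ± 0.41). The smallest change of the 12 GTPases was that of Gbp7, at 16.8, 32.3 and 39.4 CPM in the cKO libraries and 15.5, 13.55 and 25.8 CPM in the WT libraries (log2 0.69 ± 0.32). For Gbp2, Gbp3 and Gbp7 the overlap was that of cKO 1 with WT 3 alone. Gbp6 shares 70.7% of its 50-base words with other annotated genes, mostly Gm43302, so its count is uncertain.

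Among the 3 other induced genes, Ubd had the largest fold of all members and, per kilobase of exon, the lowest WT level. Ubd encodes FAT10, a ubiquitin-like modifier that targets proteins to the proteasome. Its raw counts were 54, 89 and 69 reads in the cKO libraries, against 5, 0 and 0 reads in the WT libraries, or 1.63 to 3.47 CPM against at most 0.108 CPM. Its fitted log2 fold change of 5.83 ± 0.81 rests on 5 WT reads and moved to 9.34 without WT 1, the library that holds them. Serpina3g, a protease inhibitor, had 4.49, 7.17 and 8.51 CPM in the cKO libraries, against 1.54, 0.950 and 1.39 CPM in the WT libraries (log2 2.37 ± 0.31). Zbp1, a sensor of Z-form nucleic acid, averaged 3.67 ± 1.77 CPM in cKO and 0.770 ± 0.456 CPM in WT (log2 2.25 ± 0.54). None of these 3 overlapped between groups.

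The chemokines Cxcl9 and Cxcl10, neighbours on chromosome 5 that both signal through the receptor CXCR3 on T cells, differed in pattern. Cxcl9 had 4.07, 7.40 and 15.95 CPM in the cKO libraries, against 1.58, 1.375 and 1.94 CPM in the WT libraries (log2 2.49 ± 0.46). Cxcl10 had 9.68, 8.61 and 7.32 CPM in the cKO libraries, against 8.31, 13.2 and 10.35 CPM in the WT libraries (log2 -0.31 ± 0.20). Every cKO library was above every WT library for Cxcl9, while the groups overlapped for Cxcl10. Cxcl10 was the 1 member with a lower mean in cKO, a difference within the spread of its libraries. Within the cKO group, cKO 3 was highest for Cxcl9 and lowest for Cxcl10. The promoter window of Cxcl10 held an ISRE starting 213 bases before the start, and that of Cxcl9 held neither motif.

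**Figure D2:**
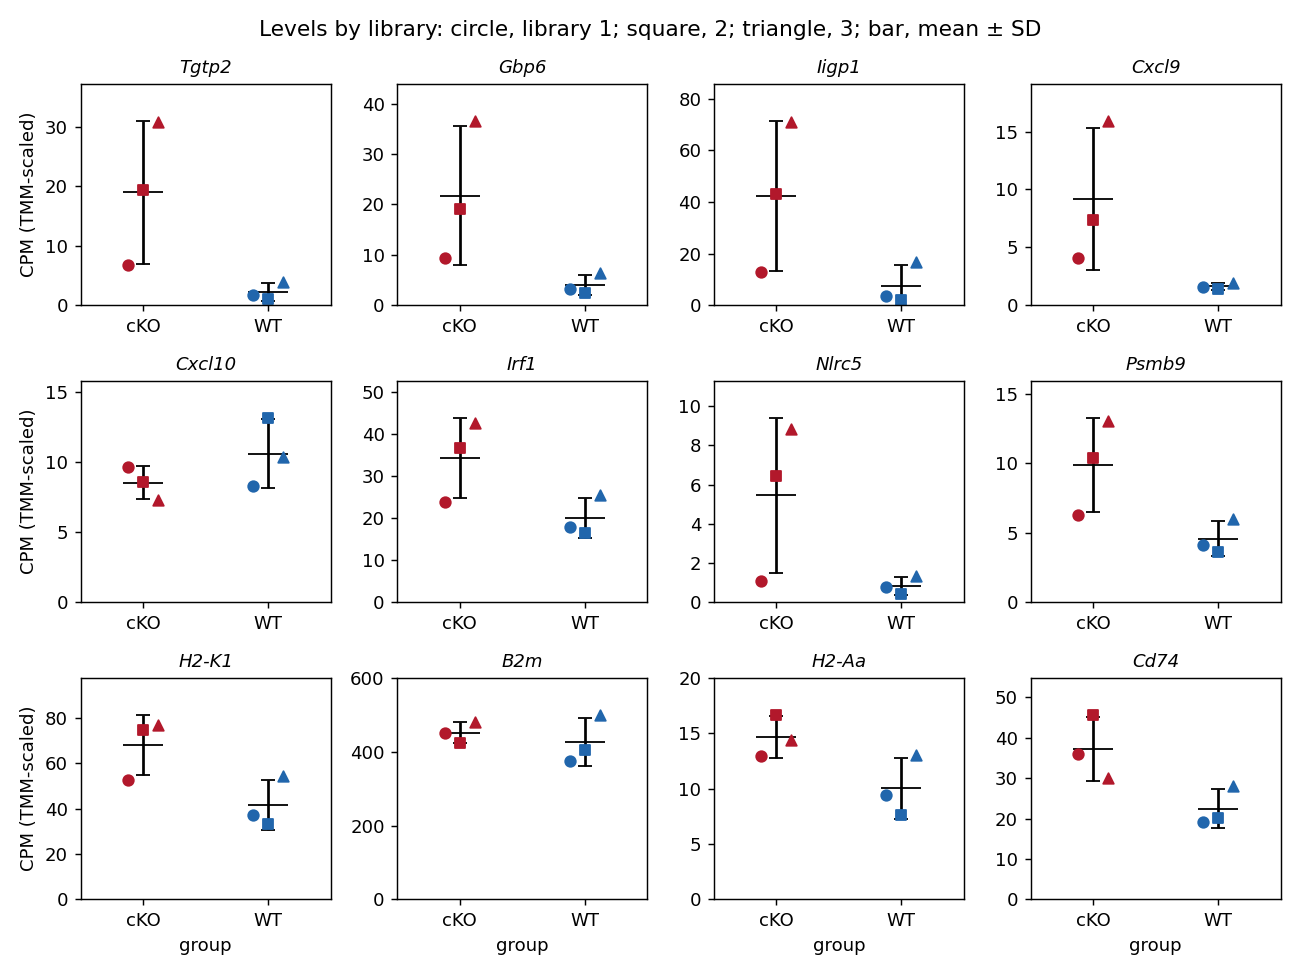
Levels of 12 members in CPM (vertical axes, from 0), with cKO left and WT right; each point is 1 library and the bar and whiskers are the mean ± SD of 3 libraries. Tgtp2, Gbp6, Cxcl9 and Psmb9 show no overlap, Iigp1 overlaps through cKO 1 and WT 3, Cxcl10 is the gene with the lower cKO mean, and B2m differs little.

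The regulators are the transcription factors Irf1 and Irf8 and the co-activators Nlrc5 and Ciita, which switch on class I and class II genes. Nlrc5, the class I co-activator, had 1.085, 6.46 and 8.82 CPM in the cKO libraries, against 0.779, 0.400 and 1.335 CPM in the WT libraries (log2 2.70 ± 0.70). It stood high in cKO 2 and cKO 3, while cKO 1 lay below WT 3. Ciita, the class II co-activator, was the member with the fewest reads over the 6 libraries, with 10, 29 and 38 reads in the cKO libraries and 22, 11 and 19 reads in the WT libraries (log2 1.07 ± 0.56). Irf1, a transcription factor that interferon-gamma induces early, had 23.8, 36.6 and 42.5 CPM in the cKO libraries, against 17.95, 16.5 and 25.4 CPM in the WT libraries (log2 0.78 ± 0.23). Irf8, a factor of macrophages and dendritic cells, had 10.04, 12.7 and 12.6 CPM in the cKO libraries, against 7.83, 7.02 and 8.87 CPM in the WT libraries (log2 0.57 ± 0.16). Irf8 did not overlap between groups and Irf1 did.

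In the class I route, the genes that make and move peptides differed more than the light chain that every class I molecule carries. Psmb9, an immunoproteasome subunit, had 6.24, 10.4 and 13 CPM in the cKO libraries, against 4.13, 3.57 and 5.97 CPM in the WT libraries (log2 1.11 ± 0.30). Psmb8, another such subunit, averaged 19.5 ± 3.87 CPM in cKO and 11.1 ± 2.71 CPM in WT (log2 0.81 ± 0.21). Tap1, a chain of the peptide transporter, had 16.3, 27.4 and 28.85 CPM in the cKO libraries, against 12.5, 11.45 and 14.9 CPM in the WT libraries (log2 0.90 ± 0.21). These 3 genes did not overlap between groups. Tap2, the partner of Tap1, averaged 18.9 ± 4.83 CPM in cKO and 13.2 ± 1.88 CPM in WT (log2 0.51 ± 0.20), with cKO 1 below WT 3. Psmb9 (mm10 chr17:34181987-34187764, minus strand) and Tap1 (chr17:34187553-34197225, plus strand) start from opposite strands and share 212 exon bases.

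The class I heavy chains were moderately higher. H2-K1 had 52.75, 74.5 and 77.1 CPM in the cKO libraries, against 37.2, 33.3 and 54.4 CPM in the WT libraries (log2 0.71 ± 0.20). H2-D1 had 63.0, 58.6 and 65.8 CPM in the cKO libraries, against 33.9, 38.4 and 50.9 CPM in the WT libraries (log2 0.61 ± 0.14). H2-D1 did not overlap between groups, while cKO 1 lay below WT 3 for H2-K1. B2m, the light chain, had 451.8, 424.4 and 481.8 CPM in the cKO libraries, against 376.7, 406.5 and 501.6 CPM in the WT libraries (log2 0.08 ± 0.12). All 3 cKO libraries lay below WT 3, and the difference turned to -0.04 without WT 1. Per kilobase of exon, B2m stood at 526 CPM in cKO and 498 CPM in WT, far above H2-K1 at 23.2 CPM in cKO and 14.2 CPM in WT. Between 9.63% (H2-K1) and 12.8% (H2-D1) of their 50-base words occur in transcripts of other genes, so related class I genes can exchange reads.

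The ratio of an immunoproteasome subunit to the constitutive subunit it replaces compares members with genes outside the list in the same library. Psmb9 reads made 0.0345, 0.0665 and 0.086 of Psmb6 reads in the cKO libraries, against 0.0282, 0.0224 and 0.0391 in the WT libraries. For Psmb8 over Psmb5 the ratios were 0.115, 0.203 and 0.192 in the cKO libraries, against 0.106, 0.08 and 0.14 in the WT libraries. Psmb10, which is not a member, made 0.292 ± 0.011 of Psmb7 reads in cKO and 0.243 ± 0.028 in WT (SD, n = 3 each). Both member ratios were higher on average in cKO, but cKO 1 lay below WT 3 for each of them. Of 14 constitutive proteasome genes, 0 were called by edgeR or DESeq2 and 0 had an unadjusted edgeR p under 0.05, with a median log2 fold change of 0.02. The share called by edgeR over all tested genes was 10.9%.

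The class II genes were moderately higher too, with a different order of libraries. Cd74, the invariant chain that escorts class II molecules, had 36.1, 45.75 and 29.98 CPM in the cKO libraries, against 19.2, 20.04 and 27.97 CPM in the WT libraries (log2 0.73 ± 0.19). H2-Ab1, the beta chain of I-A, had 14.6, 16.5 and 14.85 CPM in the cKO libraries, against 10.2, 8.497 and 12.6 CPM in the WT libraries (log2 0.56 ± 0.16). Both genes were without overlap, with WT 3 closest to the cKO libraries. H2-Aa, the alpha chain of I-A, averaged 14.7 ± 1.88 CPM in cKO and 10.04 ± 2.77 CPM in WT (log2 0.55 ± 0.20). H2-Eb1, the beta chain of I-E, averaged 13.6 ± 2.18 CPM in cKO and 9.89 ± 2.52 CPM in WT (log2 0.46 ± 0.20). These last genes overlapped between groups, each through WT 3. H2-Ea-ps, the locus of the I-E alpha chain, had 0 reads in all 6 libraries.

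**Figure D3:**
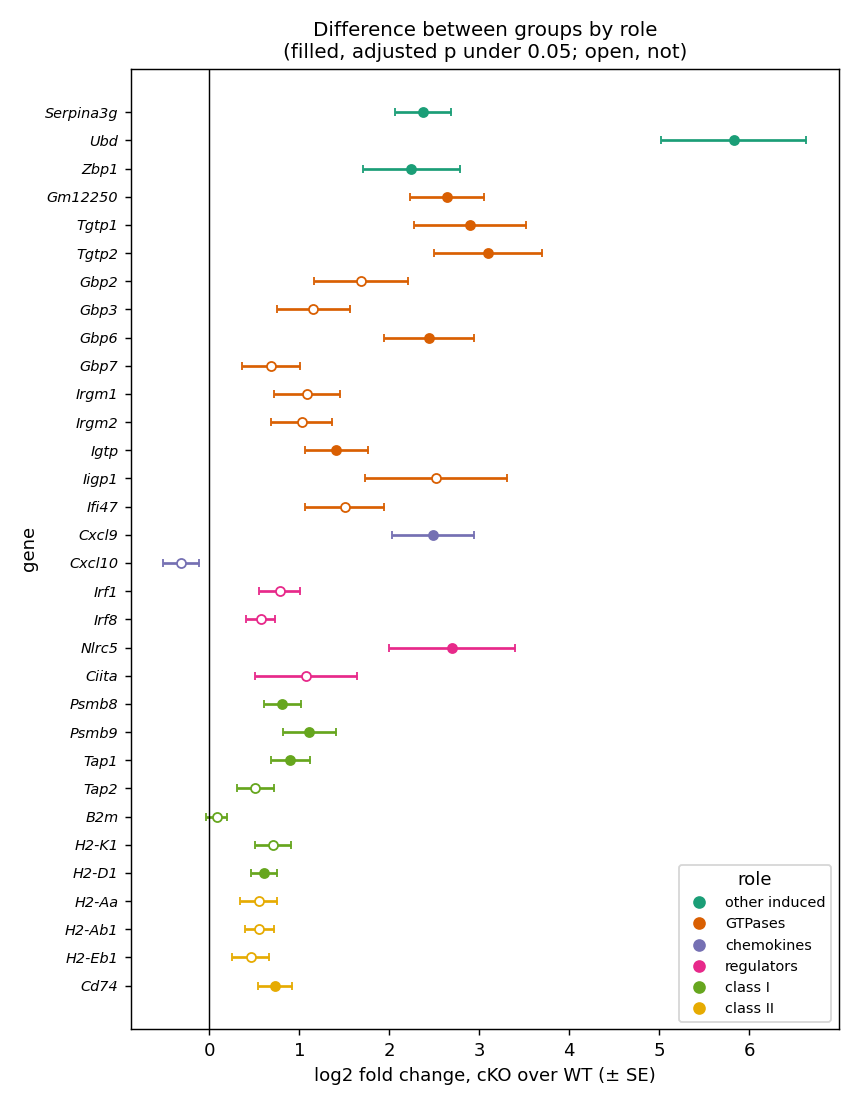
Log2 fold change of each member, cKO over WT (horizontal axis), with the SE from the edgeR fit of 3 against 3 libraries; colours give the role, filled points are the 15 members called in the fit over all genes and open points the 17 not called. Ubd has the largest value at 5.83, Cxcl10 the one value below 0 at -0.31, and class I and class II genes lie between 0.08 and 1.11.

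The members also varied together within groups. The edgeR fit and the overlap between groups both use this spread, so the order of libraries is no separate support for the differences. Library cKO 3 was the highest of its group for 24 of the 32 members (75%), against 28.1% of all tested genes, and cKO 1 was the lowest for 27 of 32, against 44% of all tested genes. In the WT group, WT 3 was the highest for 28 of 32 (87.5%), against 39.1% of all tested genes, and WT 2 the lowest for 28 of 32, against 30.6%. By role, cKO 3 was the highest for 12 of 12 GTPases, 6 of 7 class I genes and 0 of 4 class II genes. All 4 class II genes were highest in cKO 2. From cKO 1 to cKO 3 the log2 difference between libraries, with 0.1 CPM added to each level, was 1.10 to 2.47 over the GTPases (median 1.66), 0.06 to 1.05 over the class I genes (median 0.55) and -0.27 to 0.15 over the class II genes (median -0.02). Of the 16 members whose groups overlapped, 12 did so through cKO 1 and WT 3 alone. Genes in 1 library share its RNA, so these counts describe the libraries and were not tested.

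Other genes of the pathway were taken from lists arranged by role. Among genes of interferon-gamma signalling, 0 of 10 tested were called by edgeR, with 3 at an unadjusted p under 0.05 and 1 called by DESeq2. As edgeR called 10.9% of all tested genes, 0 of 10 does not show that these genes were unchanged. Ifng itself had 1 read, in cKO 2, and 0 in the other 5 libraries. Socs1, an inhibitor of the pathway that interferon-gamma itself induces, had 9.13, 8.37 and 6.72 CPM in the cKO libraries, against 5.08, 5.17 and 5.47 CPM in the WT libraries, without overlap (log2 0.62 ± 0.18, edgeR adjusted p = 0.0547; called by DESeq2, adjusted p = 0.0207). For Jak2 the log2 value was -0.25 ± 0.11 (edgeR adjusted p = 0.19) and Ifngr1, a receptor chain, 0.14 ± 0.08 (edgeR adjusted p = 0.352). Of 10 interferon and type I receptor genes, 7 had 0 reads in all libraries, and of the 2 tested, Ifnar1 and Ifnar2, 0 were called by edgeR or DESeq2 and 0 had an unadjusted p under 0.05.

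Other genes known to be induced by interferon-gamma were higher in part. Of 24 tested, 10 rose and 0 fell (edgeR, adjusted p under 0.05; 17 had an unadjusted p under 0.05 and DESeq2 called 11), and the median log2 fold change was 0.95. Over all tested genes 4.77% were called higher, and the list was drawn up with earlier results known. Parp14, an ADP-ribosyltransferase, had 80.85, 84.7 and 95.3 CPM in the cKO libraries, against 52.7, 54.9 and 37.3 CPM in the WT libraries (log2 0.85 ± 0.15, edgeR adjusted p = 0.0075). Gbp2b had 6.15, 12.4 and 20.7 CPM in the cKO libraries, against 2.75, 2.85 and 3.48 CPM in the WT libraries (log2 2.11 ± 0.39, edgeR adjusted p = 0.00953). For both genes the groups did not overlap, and both kept the call whichever 1 of the 6 libraries was left out. Gbp10 (log2 2.83 ± 0.54) and Serpina3f (5.12 ± 0.96, on 6 reads in WT 1 and 0 in WT 2 and WT 3) also rose, but both lost the call without cKO 3 (edgeR adjusted p = 0.052 and 0.0534). The count of 10 became 2 without cKO 3 and 4 without cKO 2, WT 1 or WT 2. The other genes called, named after their values were seen, were Gbp4, Gbp8, Gbp11, Nos2, Cd274 and Icam1. Cxcl11, the third ligand of CXCR3, was not called, at a log2 fold change of -0.26 ± 0.28.

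Of 32 genes typical of type I interferon, 1 rose and 0 fell (edgeR, adjusted p under 0.05). Among all tested genes, 4.77% were called higher and 6.17% lower. In this list 9 had an unadjusted edgeR p under 0.05 and DESeq2 called 5. The list's median was 0.41 on the log2 scale, with 30 values above 0. Bst2, a membrane protein that tethers viruses, had 47.0, 56.7 and 63.6 CPM in the cKO libraries, against 32.9, 37.0 and 45.2 CPM in the WT libraries (log2 0.54 ± 0.15, edgeR adjusted p = 0.0472). The call was lost without cKO 2, cKO 3, WT 1 or WT 2 (edgeR adjusted p = 0.123, 0.193, 0.164 and 0.142). Rtp4 (log2 0.80 ± 0.23), Irf7 (0.90 ± 0.30) and Oas3 (1.5 ± 0.45) had the next smallest p-values and did not pass. Without cKO 1 or WT 3 the count was 6, and without any other library it was 0. Whether this list differs from the list of interferon-gamma genes was not tested.

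In the rest of the class I route, edgeR called 0 of 9 loading genes and 0 of 11 other heavy chain genes. At an unadjusted edgeR p under 0.05 there were 3 and 4, and DESeq2 called 2 and 0. The share called by edgeR over all tested genes was 10.9%, so 0 calls in lists this short does not show that these genes were unchanged. Erap1, which trims peptides, had a log2 fold change of 0.52 ± 0.17 and Tapbp, or tapasin, 0.45 ± 0.15, while Canx, the chaperone calnexin, had -0.26 ± 0.08. Without cKO 1, 2 loading genes (Erap1 and Tapbp) and 1 heavy chain gene (H2-Q4) were called higher. Without WT 3, Tapbp was called higher, Canx lower and H2-T23 higher. The 4 heavy chain genes with the smallest p included both directions. Fcgrt, the heavy chain of the neonatal Fc receptor, had 103.1, 92.8 and 93 CPM in the cKO libraries, against 104.6, 110 and 151 CPM in the WT libraries, lower without overlap (log2 -0.34 ± 0.14, edgeR adjusted p = 0.169). H2-T10 (log2 0.63 ± 0.26, edgeR adjusted p = 0.173) was higher without overlap, and H2-Q4 (log2 0.36 ± 0.14, edgeR adjusted p = 0.156) overlapped. H2-T23, a nonclassical heavy chain, had 24.3, 23.3 and 29.98 CPM in the cKO libraries, against 12.2, 13.85 and 25.0 CPM in the WT libraries (log2 0.61 ± 0.25, edgeR adjusted p = 0.178).

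In the rest of the class II route, 1 of 8 tested genes rose and 1 fell (edgeR). The shares called among all tested genes were 4.77% higher and 6.17% lower. H2-DMa, a chain of the peptide editor H2-DM, had 11.6, 19.9 and 15.1 CPM in the cKO libraries, against 36.25, 33.9 and 55.0 CPM in the WT libraries (log2 -1.43 ± 0.23, edgeR adjusted p = 0.00601). Every cKO library lay below every WT library, opposite in direction to the 4 class II members, and the call held in all 6 fits that left out 1 library. Its partner H2-DMb1 averaged 13.5 CPM in cKO and 22.1 CPM in WT (log2 -0.72 ± 0.29, edgeR adjusted p = 0.168), with overlap. Ctss, the protease cathepsin S that trims the invariant chain, had 58.4, 52.6 and 58.5 CPM in the cKO libraries, against 40.0, 43.5 and 46.0 CPM in the WT libraries (log2 0.39 ± 0.09, edgeR adjusted p = 0.0272). Its call was lost without cKO 1, cKO 3, WT 1 or WT 2 (edgeR adjusted p = 0.0687, 0.131, 0.142 and 0.0889). Of 7 factors that bind class II promoters with Ciita, 0 were called by edgeR or DESeq2 and 0 had an unadjusted p under 0.05. Of 10 other chemokine and chemokine receptor genes, 0 were called by edgeR or DESeq2, with 2 at an unadjusted p under 0.05, and Cxcr3 itself stood at 0.545 to 0.785 CPM in the cKO libraries and 0.433 to 1.21 CPM in the WT libraries.

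Transcripts of other cell types moved with the groups. The 11 T cell markers found summed to 24.8, 37.1 and 28.1 CPM in the cKO libraries, against 11.3, 11.2 and 17.0 CPM in the WT libraries, and most of that sum was Thy1, which other cells of nerve also express. Cd3e had 0.211, 1.21 and 0.188 CPM in the cKO libraries, against 0.0216, 0 and 0.0252 CPM in the WT libraries. T cell markers were thus highest in cKO 2, while the 12 GTPases summed to 127.9, 267.4 and 413.1 CPM in the cKO libraries, highest in cKO 3, against 73.5, 56.4 and 141.7 CPM in the WT libraries. The 7 B cell markers summed to 13.2, 14.7 and 10.1 CPM in the cKO libraries, against 3.25, 3.47 and 3.43 CPM in the WT libraries, and the 8 natural killer cell markers to 2.59 to 3.39 CPM in the cKO libraries, against 0.831 to 1.30 CPM in the WT libraries. Of these, Klrb1c had 1.99, 1.91 and 2.76 CPM in the cKO libraries, against 1.10, 1.125 and 0.655 CPM in the WT libraries, without overlap but not called (edgeR adjusted p = 0.0535). Gzma had 0.362, 0.428 and 0.188 CPM in the cKO libraries, against 0.0216 to 0.0252 CPM in the WT libraries, and Nkg7 had 0.0302, 0.779 and 0.251 CPM in the cKO libraries, against at most 0.0433 CPM in the WT libraries. Ncr1 and Prf1 were at or near 0 in all 6 libraries. The class II members summed to 76.4, 95.05 and 71.2 CPM in the cKO libraries, against 48.1, 43.9 and 66.3 CPM in the WT libraries.

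The 12 macrophage markers summed to 595.5 to 624.7 CPM in cKO and 469.8 to 647.1 CPM in WT, highest in WT 3. Scaled by total counts alone, the sums were 620.3 to 658.9 CPM in cKO and 455.5 to 596.3 CPM in WT, without overlap. Of these 12 markers, edgeR called 0, with 4 at an unadjusted p under 0.05, against 10.9% called over all tested genes. The 8 dendritic cell markers summed to 7.02 to 12.3 CPM in the cKO libraries and 9.27 to 10.9 CPM in the WT libraries. Endothelial markers (6 genes) summed to 352.5 to 431.1 CPM in the cKO libraries and 264.6 to 420.3 CPM in the WT libraries. Skeletal muscle markers (9 genes) summed to 3793, 8396 and 5004 CPM in the cKO libraries, against 1463, 378.7 and 1386 CPM in the WT libraries, and adipocyte markers (6 genes) to 301.8, 329.9 and 418.5 CPM in the cKO libraries, against 91.5, 88.15 and 406.1 CPM in the WT libraries. Of the 14 marker lists, 4 had their highest cKO sum in cKO 3 and their highest WT sum in WT 3, as most members did, namely the adipocyte, endothelial, macrophage and lymphatic lists. Mast cell markers (6 genes) summed to 114.0 to 229.8 CPM in the cKO libraries, against 78.1 to 100.5 CPM in the WT libraries. Neutrophil markers (5 genes) summed to 18.4 to 30.7 CPM in cKO and 5.82 to 20.3 CPM in WT, fibroblast markers (6 genes) to 8013 to 8522 CPM in cKO and 6996 to 8692 CPM in WT, red blood cell markers (7 genes) to 93.9 to 125.0 CPM in cKO and 52.7 to 117.8 CPM in WT, and lymphatic and lymph node markers (5 genes) to 31.7 to 42.7 CPM in cKO and 19.4 to 27.1 CPM in WT. Most of that last sum was Lyve1, which was highest in cKO 3 and not called, as was Prox1. Ccl19 of the same list was highest in cKO 2, with 3.50, 7.48 and 3.33 CPM in the cKO libraries. In the WT libraries Ccl19 had 0.0649, 0.125 and 0.454 CPM (log2 4.48 ± 0.63, edgeR adjusted p = 0.00323). The part of any of these cells in the members' levels was not tested.

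**Figure D4:**
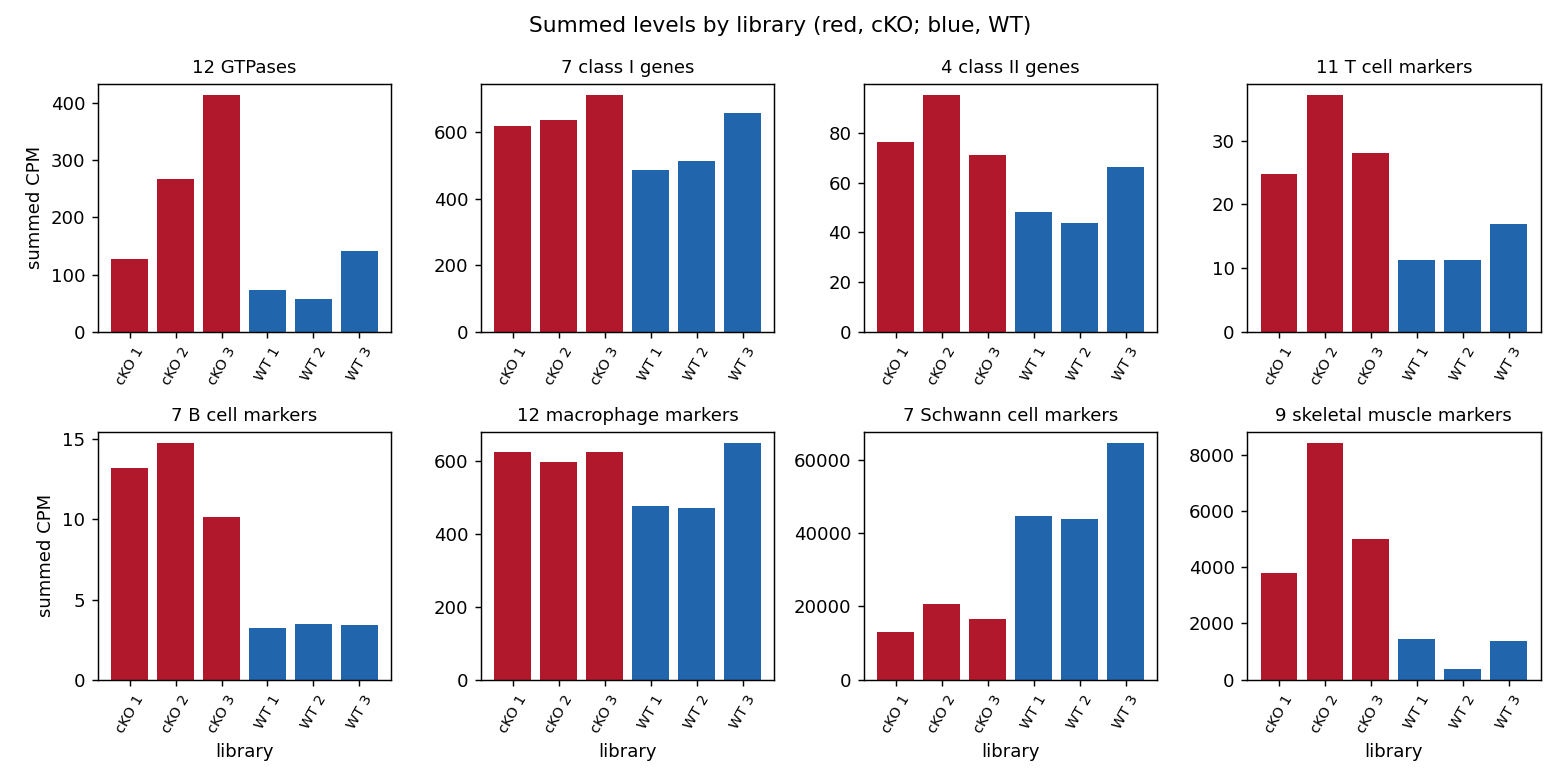
Summed CPM of 3 groups of members and 5 marker lists in each library (bars from 0; red, cKO; blue, WT). GTPases peak in cKO 3, class II members and T and B cell markers peak in cKO 2, and the class I sum consists mostly of B2m. Macrophage markers overlap between groups at this TMM scaling, but not with total counts alone.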

How the data were processed

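RNA of 6 sciatic nerve samples, 3 per group, was extracted with Trizol and RNeasy and sequenced from Illumina TruSeq libraries, per the labels' protocols. Each deposited file gives raw counts of reads for every gene symbol, not normalized by the authors. TopHat2 version 2.0.13, HTSeq with no version and the build mm10 are named per the submitters' processing notes; annotation, strand setting and read length are not stated, so overlapping genes cannot be separated by strand. The closing lines of each file (no gene, 12.07% to 14.26% of counts; ambiguous, 1.635% to 2.818%) were left out.

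The comparison used the quasi-likelihood test of edgeR 4.0.16 (R 4.3.3) on all genes that passed filterByExpr (minimum count 10), with TMM factors, the group as the only term and Benjamini-Hochberg adjustment over 14789 genes. All 32 members passed that filter. Standard errors were taken as log2 fold change over √F. DESeq2 1.42.0, other scalings and filters, a replicate block and leaving out each library were alternatives. Pairs of libraries in a group differed with chi-square over degrees of freedom of 13.4 or more, so none was a second copy. The pipeline was tested on simulated data.

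Exon lengths, positions and 50-base words came from GENCODE M21 (GRCm38, the assembly of mm10), and promoters from RefSeq tables of GRCm38.p6. Members and lists were chosen with earlier results of these data known. Named were all members, Yap1, Wwtr1, Ifng, up to 4 genes per pathway list in order of p and any listed marker; Xist and Ddx3y check the samples, and Cxcl11, Cxcr3, Ifngr1, H2-Ea-ps, Gm12185, Creb1 and the proteasome genes Psmb3, Psmb5, Psmb6, Psmb7 and Psmb10 were chosen after their values were seen. Not every gene named by the rule is reported here.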

Additional observations from a re-analysis of the deposited data

How the results depend on the processing

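Leaving out 1 library at a time gave 735 to 2195 called genes over the whole table (1618 with all libraries), 5 to 27 called members (15) and 3 to 21 called genes of the pathway lists (13). Those lists gave 21 calls with total counts and 21 with the DESeq2 Wald test. With total counts the all-gene median shifted by 0.124 (log2), and 31 of 32 members had a positive fold change under each of the scalings tried. Ifnar1, at 0.00, was -0.01 with DESeq2 size factors, the DESeq2 test and no filter, and ranged from -0.06 to 0.02 in the fits without 1 library. Psmb3 (0.11) was -0.06 without cKO 1, its values without 1 library ranging from -0.06 to 0.18, and Creb1 (-0.11) was 0.01 with total counts. The cause of these changes was not tested.

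The replicate numbers share only a label. Same-numbered libraries deviated with correlations of -0.207, -0.122 and 0.072, and 2 of 6 libraries correlated best with their own number. With the replicate block, 1104 genes, 20 members and 9 pathway genes were called. Every count rests on 3 libraries per group, and genes with few reads in WT, such as Ubd and Serpina3f, have folds set by those reads.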
